A study of Homo sapiens with 8 samples.

Results

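*GUSB*, *ACTB*, *TBP*, *HPRT1*, *PPIA*, *YWHAZ* and *TFRC* are genes commonly used as internal references in expression assays, and *GUSB* was the PCR control gene of the study. The 7 genes were taken from a list of names and found through the transcript accession of each probe among 22439 named genes on the array. All 7 were measured well above background in both channels on all 8 arrays.

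Each two-colour Agilent array compared RNA from treated or edited human lung cancer cells (Cy5, red) with control RNA from the same line (Cy3, green). EBC-1 and also SK-MES-1, both lung squamous cell carcinoma lines, received *miR-150-3p* by transfection, with 1 array each. SBC-3, a small cell lung cancer line, was transfected with siDONSON-1, siDONSON-2 or siDONSON-3, which are 3 siRNAs against the replication gene *DONSON*, with 1 array each. The lung adenocarcinoma line A549 was edited at *LOXL2*, the gene of a lysyl oxidase, with CRISPR/Cas9 and gave the 3 arrays A549-GE1, A549-GE2 and A549-GE3. The controls of the transfected lines are called both mock and untransfected in the labels, and the A549 control was not edited. Apart from the proliferation and luciferase reporter assays, the study's methods give 1 transfection time, without naming the arrays. They describe neither the siDONSON transfections nor the *LOXL2* editing. Whether the A549-GE arrays hold separate clones or repeat cultures is not given in the sources used here. It is also not stated whether the 3 arrays of a line share a control RNA, so part of their spread may be technical. The *miR-150-3p* arrays are 2 different lines and the siDONSON arrays 3 different siRNAs, so n counts arrays and not repeats of 1 condition. The p-values measure only the spread between these arrays, pooled over the 3 groups. The close A549-GE arrays (median range over all genes 0.17, against 0.44 with siDONSON) thus also set the spread used for the other groups.

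All 8 arrays lay on 1 slide and none had the dyes swapped, so a treatment effect and a dye effect of a single gene cannot be told apart. Between 41.1% and 46.4% of the probes were well above background in the green channel and between 48.5% and 56.2% in the red channel. In the green channel, 5 of 8 squamous markers were above background in SK-MES-1 but 1 of 8 in EBC-1, beside 3 or 4 in SBC-3 and 1 or 2 in A549, with *SOX2* above background on all 8 arrays and *KRT5* on 0 of 8. Of 8 neuroendocrine markers the SBC-3 controls had 4, without *INSM1*, and the other lines 1 or 2. Of 8 adenocarcinoma markers the A549 controls had 5 or 6, without *NKX2-1*, as many as EBC-1 (5) and SK-MES-1 (6), and SBC-3 had 4 to 6. The squamous and adenocarcinoma lists thus did not separate the lines. The targeted genes were below their controls. The log2 ratio of *DONSON* was -2.15, -1.79 and -2.11 with siDONSON-1 to siDONSON-3, and that of *LOXL2* was -2.49, -2.67 and -2.59 on A549-GE1 to A549-GE3.

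In such assays the gene of interest is divided by a reference gene to remove differences in RNA input, so any change in the reference is passed on, with its sign turned, to every gene measured against it. The 7 genes serve unrelated processes. *GUSB* encodes the lysosomal enzyme beta-glucuronidase, *HPRT1* recycles purine bases, and *PPIA* encodes cyclophilin A, a protein-folding isomerase. *TBP* encodes the TATA-binding protein of the general transcription machinery. *ACTB* encodes a cytoskeletal actin, *YWHAZ* the signalling adaptor 14-3-3 zeta, and *TFRC* the transferrin receptor through which cells take up iron.

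The measure for each gene was the log2 ratio of red over green processed signal, averaged over its probes, where 0 means equal signal in treated and control cells. The software error is the scanner software's estimate of 1 SD of that ratio on a single array, and it covers technical noise only. *GUSB* and *TFRC* were each measured by 1 probe spotted 10 times, *TBP* and *HPRT1* by 1 probe with 1 spot, *ACTB* and *YWHAZ* by 2 probes and *PPIA* by 5 probes.

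**Figure D1:**
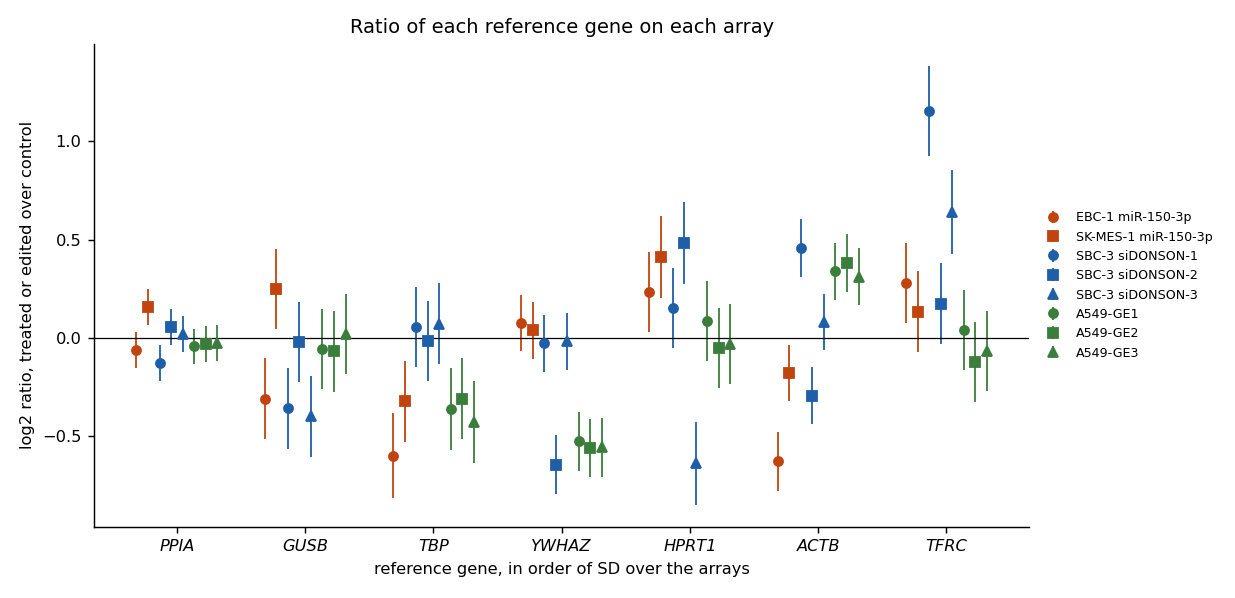
Each point is the log2 ratio of treated or edited over control for 1 gene on 1 array, the bar is 1 software error on either side, colour is the treatment group and shape the array. *PPIA* stayed between -0.13 and 0.15, *TFRC* reached 1.15 with siDONSON-1, and the 3 A549-GE arrays lay close together for every gene.

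Among the enzymes, *GUSB* had a log2 ratio of -0.31 in EBC-1 but 0.25 in SK-MES-1 after *miR-150-3p* transfection, of -0.36, -0.02 and -0.40 with siDONSON-1 to siDONSON-3, and of -0.06, -0.07 and 0.02 on A549-GE1 to A549-GE3. The lowest value was with siDONSON-3 and the highest in SK-MES-1, and both *miR-150-3p* arrays lay on opposite sides of 0. The software error was 0.20 to 0.21, and 0 of 8 arrays lay outside the 95% limits it sets. The 10 spots of the probe differed by an SD of only 0.009 to 0.039 within an array, well below the SD of 0.22 between arrays. The mean with siDONSON was -0.26 (95% interval -0.55 to 0.03, n = 3, below 0 on 3 of 3 arrays; limma adjusted p = 0.241). The mean in edited A549 cells was -0.04 (95% interval -0.33 to 0.26, n = 3; limma adjusted p = 0.88), and with *miR-150-3p* it was -0.03 (95% interval -0.39 to 0.33, n = 2; limma adjusted p = 0.915).

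*HPRT1* had a log2 ratio of 0.23 in EBC-1, of 0.41 in SK-MES-1 after *miR-150-3p* transfection, of 0.15, 0.48 and -0.64 with siDONSON-1 to siDONSON-3, and of 0.09, -0.05 and -0.03 on A549-GE1 to A549-GE3. The 3 siRNAs pulled apart, with siDONSON-2 the highest of the 8 arrays and siDONSON-3 the lowest. The range of 1.12 among the siRNAs compared with a median range of 0.44 over all genes with a value on every array. Their mean was therefore near 0 (-0.001, 95% interval -0.44 to 0.43, n = 3; limma adjusted p = 0.997) although 2 of the 3 arrays lay outside the software limits. Both *miR-150-3p* arrays were above 0, with a mean of 0.32 (95% interval -0.21 to 0.85, n = 2; limma adjusted p = 0.378).

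*PPIA* had a log2 ratio of -0.06 in EBC-1 but 0.15 in SK-MES-1 after *miR-150-3p* transfection, of -0.13, 0.05 and 0.02 with siDONSON-1 to siDONSON-3, and of -0.04, -0.03 and -0.03 on A549-GE1 to A549-GE3. It was the gene nearest to 0, and 0 of 8 arrays lay outside the software limits. The 95% intervals of its group means were -0.20 to 0.29 with *miR-150-3p*, -0.22 to 0.18 with siDONSON and -0.23 to 0.17 in edited A549 cells. The average of 5 probes hid some disagreement, since their ratios had the same sign on 0 of 8 arrays and differed by 0.17 to 0.53 within an array. The brightest probe alone gave an SD over the arrays of 0.13 in place of 0.08. *PPIA* and *ACTB* have processed pseudogenes, and whether their probes also measured such copies was not tested.

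For transcription, *TBP* had a log2 ratio of -0.60 in EBC-1, of -0.32 in SK-MES-1 after *miR-150-3p* transfection, of 0.05, -0.02 and 0.07 with siDONSON-1 to siDONSON-3, and of -0.36, -0.31 and -0.43 on A549-GE1 to A549-GE3. Each value with *miR-150-3p* and in edited A549 cells lay below all values with siDONSON. *TBP* was lower than in the control with *miR-150-3p* (mean -0.46, SE 0.11, n = 2; limma adjusted p = 0.0499) and in edited A549 cells (mean -0.37, SE 0.09, n = 3; limma adjusted p = 0.0323). It was the only one of the 7 genes called with *miR-150-3p*, where 5.38% of 14228 genes were called. With siDONSON its mean was 0.04 (95% interval -0.17 to 0.24, n = 3). The *TBP* probe was dim, with a green intensity of 429 to 823 on the 8 arrays, and both calls were lost under another background correction and dye normalization (normexp and loess, means -0.20 and -0.15; limma adjusted p = 0.0864 and 0.0822). Without the EBC-1 array the *miR-150-3p* mean was -0.32 (limma adjusted p = 0.328), and that call was also lost when siDONSON-1, siDONSON-3 or any one of the 3 A549-GE arrays was left out of the shared fit. Leaving out any one of the A549-GE arrays gave a limma adjusted p of 0.146 to 0.184 for the edited cells.

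For structure and signalling, *ACTB* had a log2 ratio of -0.63 in EBC-1, of -0.18 in SK-MES-1 after *miR-150-3p* transfection, of 0.46, -0.29 and 0.08 with siDONSON-1 to siDONSON-3, and of 0.34, 0.38 and 0.31 on A549-GE1 to A549-GE3. It was below 0 on both *miR-150-3p* arrays, above 0 on all A549-GE arrays and on both sides of 0 with siDONSON. Both probes had the same sign on 8 of 8 arrays and differed by at most 0.17, and 6 of 8 arrays lay outside the software limits. These limits are narrower for a gene averaged over 2 probes (software error 0.14 to 0.15) than for one with a single probe, so this count is not compared between genes. No group mean passed the test. It was -0.40 with *miR-150-3p* (95% interval -0.83 to 0.02, n = 2; limma adjusted p = 0.179), 0.08 with siDONSON (n = 3; limma adjusted p = 0.768) and 0.34 in edited A549 cells (95% interval -0.004 to 0.69, n = 3; limma adjusted p = 0.165). The A549 arrays alone, with their own narrower spread, gave a limma adjusted p of 0.014 for the same mean.

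*YWHAZ* had a log2 ratio of 0.07 in EBC-1, of 0.04 in SK-MES-1 after *miR-150-3p* transfection, of -0.03, -0.65 and -0.02 with siDONSON-1 to siDONSON-3, and of -0.53, -0.56 and -0.56 on A549-GE1 to A549-GE3. The values split into 4 arrays near 0 and 4 arrays between -0.65 and -0.53, the latter being siDONSON-2 and every A549-GE array. *YWHAZ* was lower in edited A549 cells than in the control (mean -0.55, SE 0.13, n = 3; limma adjusted p = 0.0303). Together with *TBP* this made 2 of 7 genes called in that comparison, beside 14.4% of 15531 genes. Both *YWHAZ* probes were below 0 on these 4 arrays, but they had the same sign on only 5 of 8 arrays. With siDONSON-1 the probes gave -0.30 and 0.24 and with siDONSON-3 -0.22 and 0.19, so these values near 0 are averages of probes on opposite sides of it. With the brighter probe alone the A549 mean was -0.38 and was no longer called (limma adjusted p = 0.0832), and the call was also lost when any one of the 3 A549-GE arrays was left out (limma adjusted p 0.135 to 0.154). The mean with siDONSON was -0.23 (95% interval -0.53 to 0.07, n = 3; limma adjusted p = 0.298).

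For iron uptake, *TFRC* had a log2 ratio of 0.28 in EBC-1, of 0.13 in SK-MES-1 after *miR-150-3p* transfection, of 1.15, 0.17 and 0.64 with siDONSON-1 to siDONSON-3, and of 0.04, -0.12 and -0.07 on A549-GE1 to A549-GE3. It was 2.23-fold higher than the control with siDONSON-1 and 1.56-fold higher with siDONSON-3, and these were its only arrays outside the software limits. All 3 siRNA arrays lay above all 3 A549-GE arrays. The mean with siDONSON was 0.66 (95% interval 0.27 to 1.04, n = 3, above 0 on 3 of 3 arrays) and narrowly missed the threshold (limma adjusted p = 0.0544). It passed with normexp and loess (mean 0.60; limma adjusted p = 0.0365), with the filter on both channels, without a filter, and without siDONSON-2 (mean 0.90; limma adjusted p = 0.0233). By limma 0 of the 7 genes were called with siDONSON, beside 7.22% of 14453 genes, and 1 of 7 (*TFRC*) had an unadjusted p under 0.05, beside 26.1% of all genes.

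**Figure D2:**
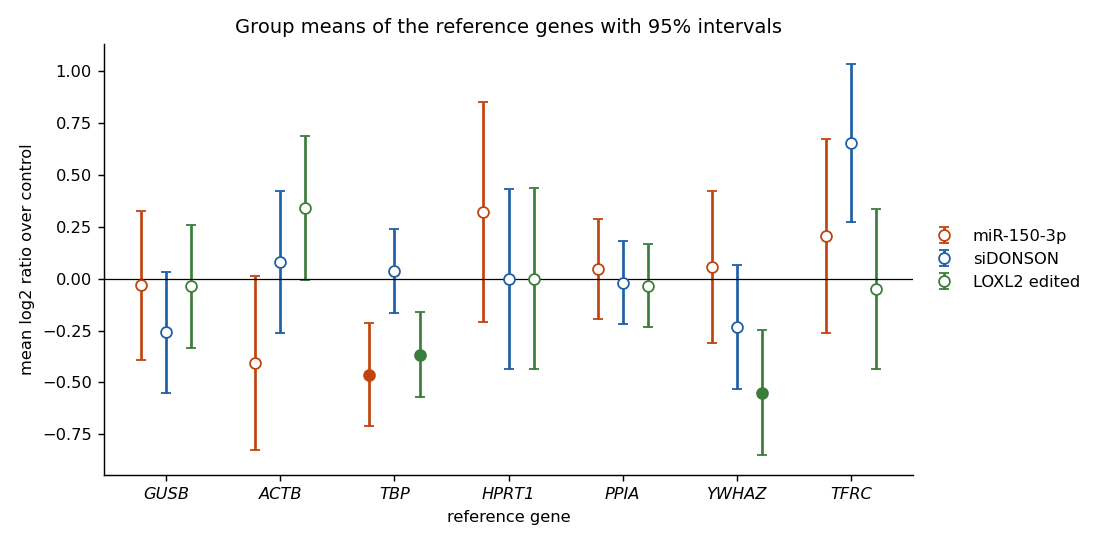
Points are the mean log2 ratio over control of each gene in each treatment group (2 arrays with *miR-150-3p*, 3 with siDONSON, 3 with *LOXL2* editing), bars are 95% intervals from the limma fit that shares its spread over all 8 arrays, and filled points passed an adjusted p of 0.05. *TBP* in 2 groups and *YWHAZ* in edited A549 cells were below 0, and the siDONSON mean of *TFRC* was 0.66 without passing.

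The difference between siDONSON and *LOXL2* editing was tested in the same fit, where a dye effect that is the same on all arrays cancels. By limma 0 of the 7 genes were called, beside 7.29% of 13655 genes, and 2 of 7 had an unadjusted p under 0.05, beside 25.4%. The largest differences were those of *TFRC* (0.71, SE 0.23, higher with siDONSON; limma adjusted p = 0.103) and *TBP* (0.40, SE 0.12, higher with siDONSON; limma adjusted p = 0.087). The interval of *PPIA* was -0.26 to 0.29, and that of *HPRT1*, the widest of the 7, was -0.61 to 0.60.

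Steadiness over all treatments and lines was described by the SD of the 8 log2 ratios of a gene. It was 0.085 for *PPIA*, 0.22 for *GUSB*, 0.25 for *TBP*, 0.32 for *YWHAZ*, 0.35 for *HPRT1*, 0.39 for *ACTB* and 0.43 for *TFRC*. Over 12862 genes with a value on every array the median SD was 0.29. Thus 3 of the 7 genes varied less than the median gene and 4 varied more. *PPIA* stood at percentile 1.49 of all genes, *GUSB* at 31.8, *TBP* at 39.3, *YWHAZ* at 57.5, *HPRT1* at 63.9, *ACTB* at 71.5 and *TFRC* at 76.8. *PPIA* had the lowest SD of the 7 genes in 15 of 15 settings and *TFRC* the highest in 14. The exception was without siDONSON-1, where *ACTB* was highest. These settings are not separate checks. The other filters and keeping marked spots left the SD of *PPIA* at 0.085, and most of the remaining settings left out 1 of the same 8 arrays. The place of *PPIA* among all genes was less stable. It was at percentile 19.4 after normexp and loess, and at 7.62 with the brightest probe alone.

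**Figure D3:**
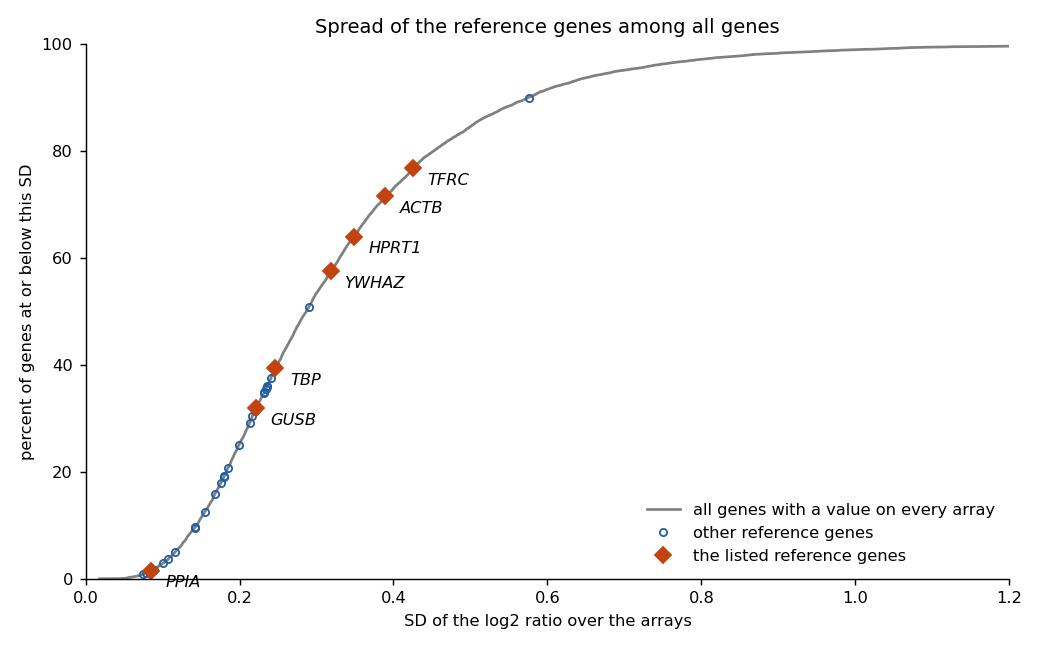
The line gives the percent of the 12862 genes whose SD over the 8 arrays was at or below the value on the horizontal axis, diamonds are the 7 reference genes and open circles 27 other reference genes. *PPIA* lies at percentile 1.49, whereas *YWHAZ*, *HPRT1*, *ACTB* and *TFRC* lie above percentile 50.

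For 4 of the 7 genes the widest range within a group was among the siRNA arrays. Within the siDONSON group the range was 1.12 for *HPRT1*, 0.98 for *TFRC*, 0.75 for *ACTB*, 0.63 for *YWHAZ*, 0.38 for *GUSB*, 0.18 for *PPIA* and 0.09 for *TBP*. Within the A549-GE arrays it was 0.02 to 0.17, and 7 of 7 genes lay below the median range of 0.169 over all genes. Over genes above background in both channels on all 8 arrays that median was 0.153, and *TFRC* (0.166) lay above it. Between both *miR-150-3p* arrays, which are of different lines, *GUSB* had the widest range of the 7 genes (0.56) and *YWHAZ* the narrowest (0.04). Against the 95% software limits, the number of the 7 genes outside was 2 on the EBC-1 array and 1 on that of SK-MES-1, where 41.1% and 18.5% of all genes were outside. It was 2, 3 and 2 with siDONSON-1 to siDONSON-3, beside 26.9%, 26.7% and 25.3% of all genes. It was 2, 2 and 3 on A549-GE1 to A549-GE3, beside 24.8%, 22.9% and 22.6%.

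The genes were also compared in pairs, since the difference of 2 genes is unchanged when all log2 values of an array shift by a constant. Another background correction and dye normalization, such as normexp and loess, can still change it. For each pair the SD over the 8 arrays of the difference of their log2 ratios was taken, and each gene was summarised by the mean of its 6 SDs, the geNorm stability measure M. M was lowest for *PPIA* (0.33), followed by *TBP* (0.37), *GUSB* (0.39), *YWHAZ* (0.43), *HPRT1* (0.47), *TFRC* (0.48) and *ACTB* (0.50). For the ratios the steadiest pair was *GUSB* with *PPIA* (SD 0.17), and the least steady was *ACTB* with *HPRT1* (SD 0.62). For the levels of a single channel *GUSB* with *PPIA* had an SD of 0.61 in green and 0.58 in red. The steadiest pairs there were *PPIA* with *YWHAZ* in green (0.20) and *ACTB* with *PPIA* in red (0.26). Taken over the 8 control channels, which differ by cell line, M ran from 0.55 for *YWHAZ* and *PPIA* to 1.27 for *TFRC*. This M counts every array of SBC-3 and of A549 separately, although their controls may be 1 RNA a line.

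Control levels were then compared between the 4 lines, as the log2 green signal minus the 75th percentile of the green signals of the array. Levels are read within a gene only, and the 3 arrays of SBC-3 and of A549 were averaged as 1 sample a line. *TFRC* had a level of 5.02 in EBC-1, 4.40 in SK-MES-1, 4.68 in A549 and 2.12 in SBC-3. SBC-3 was far below the other lines, 7.43-fold below EBC-1 and 4.85-fold below SK-MES-1, whereas the 3 SBC-3 arrays spanned only 2.10 to 2.16. With this scaling the range over lines was at percentile 90.2 of 11271 genes.

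*GUSB* had a control level of 5.48 in SK-MES-1, 5.35 in EBC-1, 4.69 in SBC-3 and 3.99 in A549. With this scaling *GUSB* had a 2.82-fold range over lines. Its arrays within SBC-3 spanned 4.68 to 4.71 and within A549 3.96 to 4.02, so the arrays of both lines did not overlap. Because the arrays of a line may share 1 control RNA, this spread may be technical only and does not measure how far separate cultures of a line differ. EBC-1 and SK-MES-1, with 1 array each, differed by -0.14 on the log2 scale and had no spread to set it against. *ACTB* had a level of 8.47 in EBC-1, 7.47 in SK-MES-1, 7.27 in SBC-3 and 6.95 to 7.03 on the A549 arrays. The SBC-3 arrays of *ACTB* spanned 7.03 to 7.47, a within-line range at percentile 96.3 of all genes, and reached from the level of A549 to that of SK-MES-1. The control of siDONSON-1 had the lowest of these 3 levels and the highest *ACTB* ratio. The control of siDONSON-2 had the highest level and the lowest ratio. The ratio contains this control level, so a low control raises it. In the red channel, scaled in the same way, both probes were highest with siDONSON-1 and lowest with siDONSON-2. The brighter probe had red levels of 8.85, 8.56 and 8.74 with siDONSON-1 to siDONSON-3. Whether the ratios of *ACTB* with the siRNAs reflect the treated or the control RNA was not tested.

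*HPRT1* had a control level of 4.76 in EBC-1, 4.50 in A549, 3.80 in SK-MES-1 and 3.49 in SBC-3. *PPIA* had 6.73 in EBC-1, 6.26 in A549, 6.25 in SK-MES-1 and 5.89 in SBC-3, with A549 and SK-MES-1 within the spread of the A549 arrays (6.23 to 6.28). *YWHAZ* had 4.89 in EBC-1, 4.59 in SK-MES-1, 4.07 in A549 and 3.77 in SBC-3. *TBP* had 1.36 in SBC-3, 1.19 in SK-MES-1, 0.63 in EBC-1 and 0.53 in A549, with the SBC-3 arrays spanning 1.24 to 1.51. SBC-3 was the lowest line for *HPRT1*, *PPIA*, *YWHAZ* and *TFRC* and the highest for *TBP*. On the log2 scale the range over lines was 1.27 for *HPRT1*, 1.12 for *YWHAZ*, 0.85 for *PPIA* and 0.83 for *TBP*, all below the median range of 1.34 over all genes. It was above that median for *ACTB* (1.47), for *GUSB* and for *TFRC* (2.89). SBC-3 stayed the lowest line for these 4 genes under the other scalings. With normexp the highest line became A549 for *HPRT1* and *TFRC* and SK-MES-1 for *YWHAZ* and *TBP*. The range over lines was counted as moved under 3 other scalings and as the same under 1 for *GUSB*, *PPIA* and *TFRC*. These counts were 2 and 2 for *ACTB*, *HPRT1* and *YWHAZ*, and 1 and 3 for *TBP*. The fold ranges, percentiles and places above or below the median are therefore those of the main scaling only.

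**Figure D4:**
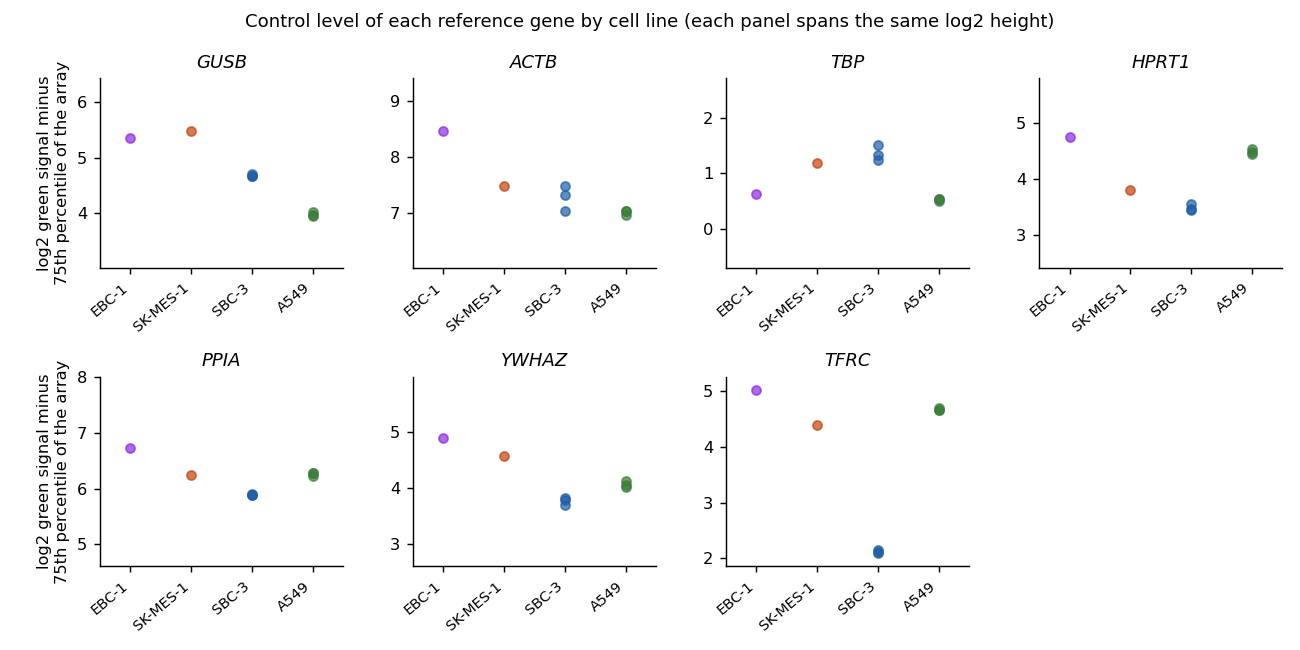
Each panel is 1 gene, each point the log2 green (control) signal on 1 array minus the 75th percentile of that array, and columns are the 4 cell lines with 1 array each for EBC-1 and SK-MES-1 and 3 each for SBC-3 and A549. *TFRC* falls to 2.12 in SBC-3, and the SBC-3 arrays of *ACTB* spread from 7.03 to 7.47.

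To see how far the choice of reference would move a relative expression value, each target was expressed over each of the 7 genes on the same array. Each value carries the technical noise of the target and of the reference on 1 array (software error of the references 0.09 to 0.23). The spread over references therefore includes this noise and is not a measure of unsteady references alone. *HELLS*, a chromatin remodelling gene studied as a *miR-150-3p* target, had a log2 ratio of -1.87 in EBC-1. Over the references it ran from -2.15 with *TFRC* to -1.24 with *ACTB*, which is 22.6% to 42.5% of the control. Over *GUSB* it was -1.55, or 34.0% of the control. With normexp and loess the reduction was smaller, at -0.80 over *GUSB*, -0.50 over *ACTB* and -1.33 over *TFRC*. In SK-MES-1 the *HELLS* ratio was -0.14, and it ran from -0.55 with *HPRT1* (68.3% of the control) to 0.19 with *TBP* (114% of the control). The values above 0, 0.04 over *ACTB* and 0.19 over *TBP*, were within 1 software error of these references there (0.14 and 0.21). This 1 array therefore does not settle the sign. The *HELLS* ratio was negative over the other references. Over *GUSB* it was -0.39, or 76.5% of the control.

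*DONSON* after siDONSON-1 ranged from 10.1% of the control over *TFRC* to 28.9% over *GUSB*, a spread of 1.51 on the log2 scale. After siDONSON-2 it ranged from 20.7% over *HPRT1* to 45.3% over *YWHAZ*, and after siDONSON-3 from 14.8% over *TFRC* to 36.0% over *HPRT1*. *HPRT1* thus gave the lowest value for siDONSON-2 and the highest for siDONSON-3. Over *GUSB* the 3 values were close, at 28.9%, 29.3% and 30.5%, whereas without a reference they were 22.6%, 28.9% and 23.1%. The *DONSON* signal is dim after knockdown, and with normexp and loess its log2 ratios over *GUSB* were -0.61, -0.82 and -0.50 in place of -1.79, -1.77 and -1.71.

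*LOXL2* on A549-GE1 to A549-GE3 was 17.8%, 15.7% and 16.6% of the control without a reference. On the log2 scale it was lowest over *ACTB*, at -2.83, -3.05 and -2.90, and highest over *YWHAZ*, at -1.96, -2.11 and -2.03. The order of these extremes was the same on all 3 arrays. Over *GUSB* it was 18.5%, 16.5% and 16.4% of the control. On every array the target was below the control whichever of the 7 genes was used, except *HELLS* in SK-MES-1 over *ACTB* and *TBP*.

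**Figure D5:**
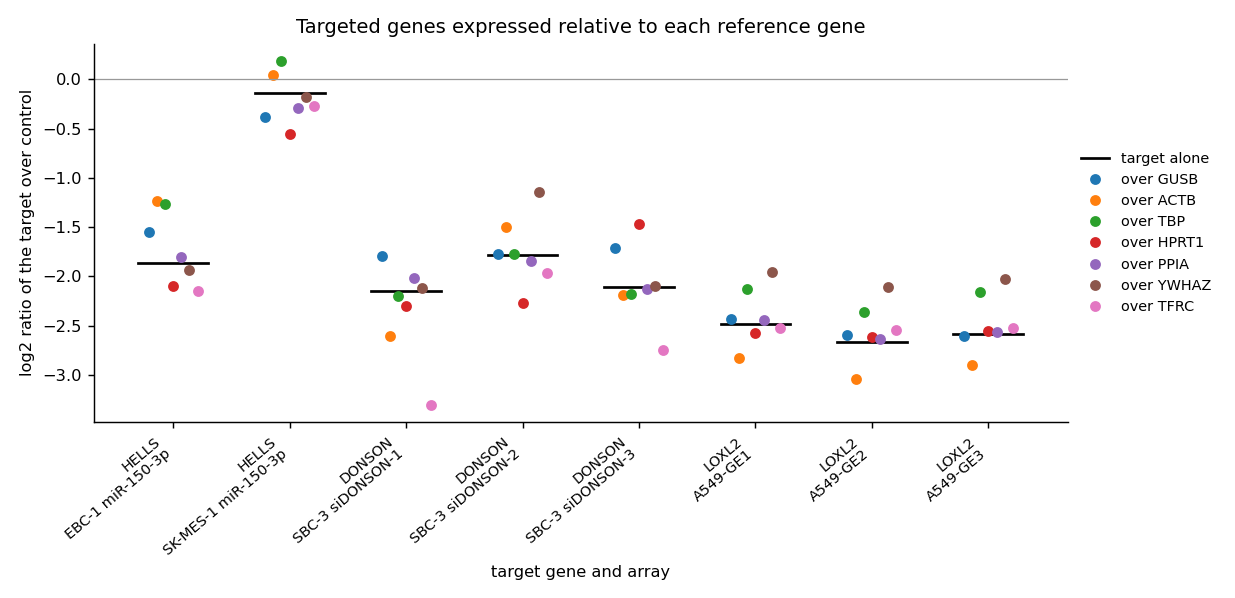
For each array the black line is the log2 ratio of the targeted gene alone (*HELLS*, *DONSON* or *LOXL2*) and coloured points are the same ratio after subtracting that of each reference gene. The spread over the references was 1.51 for *DONSON* with siDONSON-1 and 0.87 for *LOXL2* on A549-GE1, and the *HELLS* points of SK-MES-1 lie on both sides of 0.

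The 7 genes were set beside 28 other reference genes, of which 27 had a value on every array. Their median SD was 0.18, and 24 of 27 lay below the median of all genes, compared with 3 of the 7. The steadiest were *GPI*, a glycolytic enzyme (SD 0.074), *RPS18*, a ribosomal protein (0.079), and *PSMB4*, a proteasome subunit (0.089). The most variable were *REEP5*, an endoplasmic reticulum protein (0.58), *PGK1*, a glycolytic enzyme (0.43), and *RPL30*, a ribosomal protein (0.29). *GAPDH*, a further glycolytic enzyme, was -0.67 and -0.42 with *miR-150-3p*, -0.04, -0.05 and 0.08 with siDONSON, and -0.18, -0.17 and -0.14 in edited A549 cells. It was lower with *miR-150-3p* (mean -0.55, SE 0.10, n = 2; limma adjusted p = 0.0362), but not without a filter (limma adjusted p = 0.0541) or with the spread of both arrays alone (0.364). *REEP5* was lower as well (mean -0.96, SE 0.14, n = 2), and these were the 2 of 27 genes called with *miR-150-3p*. *B2M*, the light chain of MHC class I, and *RPLP0*, a ribosomal protein, had SDs of 0.23 and 0.22 and were not called in any comparison. With siDONSON 3 of 27 genes were lower, among them the proteasome gene *PSMC4* and the splicing gene *SNRPD3*, and 1 was higher. In edited A549 cells 3 of 27 genes were lower, among them *PSMC4* and *RPL30*. *RPL30* was also the 1 gene that differed between siDONSON and editing (0.59, higher with siDONSON). The calls of all genes were 5.38%, 7.22%, 14.4% and 7.29% in the 4 comparisons. At an unadjusted p under 0.05 the counts were 8, 11, 8 and 7 of 27, beside 30%, 26.1%, 31% and 25.4% of all genes.

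Genes of the same family or pathway as each reference gene were also measured. Of all genes tested, limma called 5.38% with *miR-150-3p*, 7.22% with siDONSON, 14.4% in edited A549 cells and 7.29% between siDONSON and editing. At an unadjusted p under 0.05 these shares were 30%, 26.1%, 31% and 25.4%. The counts of all lists below stand beside these shares. Of 10 lysosomal hydrolases related to *GUSB* by function, 1 was called with *miR-150-3p* and with siDONSON, *HEXA*, which was higher (means 0.62 and 0.55), and 1 in edited A549 cells, the protease gene *CTSB*, which was higher (mean 1.34, SE 0.14, n = 3). *CTSB* also differed between siDONSON and editing (-1.03, SE 0.20, n = 3 against 3). Of 10 actins and actin partners, 0 were called by limma with *miR-150-3p* (1 at an unadjusted p under 0.05), where their median log2 ratio was 0.004. *TPM1*, a tropomyosin gene, was higher with siDONSON (mean 0.76), and the actin-binding gene *TMSB10* was lower in edited A549 cells (mean -0.60) and differed between both treatments (0.59). Of 14 genes of TFIID and related factors, 0 were called by limma with *miR-150-3p* or in edited A549 cells, where *TBP* itself was lower, and 7 and 3 had an unadjusted p under 0.05. *TBPL1*, a TBP-like factor, was higher with siDONSON (mean 0.69, SE 0.12, n = 3) and differed between siDONSON and editing (0.93).

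Of 15 genes of purine salvage and synthesis, 2 were lower with *miR-150-3p*, *ADK* (mean -0.73, SE 0.13, n = 2) and *ATIC* (mean -0.55, SE 0.12, n = 2). With siDONSON 4 were lower, *ADA*, *ADK*, *ATIC* and *IMPDH2* (means -0.49, -0.45, -0.51 and -0.50), and *IMPDH1* was higher (0.41). By limma 0 were called in edited A549 cells. At an unadjusted p under 0.05 the counts were 10 of 15 with *miR-150-3p*, 7 with siDONSON and 6 in edited A549 cells. The shares of all genes were 30%, 26.1% and 31%. *IMPDH1* also differed between siDONSON and editing (0.66). The median log2 ratio of the 15 genes was -0.47 with *miR-150-3p*, -0.27 with siDONSON and -0.24 in edited A549 cells. Over all genes tested it was 0.04, 0.03 and 0.02. The *miR-150-3p* median averages 2 unlike lines, so it need not hold for each. *PRPS1*, *PRPS2* and *GMPS* were at -1.35, -1.42 and -1.01 on the EBC-1 array, against -0.39, -0.26 and -0.27 for SK-MES-1. *ADK* was nearly equal (-0.75 against -0.72), whereas *APRT*, *PNP*, *ADA* and *IMPDH1* were lower in SK-MES-1. *HPRT1*, the salvage enzyme used as a reference, was above 0 on both *miR-150-3p* arrays.

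Of 12 other cyclophilins, *PPIC* was higher with *miR-150-3p* (mean 0.75), *PPIB* and *PPIL1* were lower with siDONSON (means -0.66 and -0.55), and 0 were called by limma in edited A549 cells (1 at an unadjusted p under 0.05). *PPIB* also differed between siDONSON and editing (-0.57). Of the 6 other 14-3-3 genes, 0 were called by limma with *miR-150-3p*, also at an unadjusted p under 0.05. *YWHAB* was higher with siDONSON (mean 0.43) and in edited A549 cells (mean 0.52, SE 0.10, n = 3), where *YWHAQ* was lower (mean -0.59, SE 0.09, n = 3) as *YWHAZ* was. *YWHAH* and *YWHAQ* differed between siDONSON and editing (0.58 and 0.59). Of 12 genes of iron handling, 10 had a value on every array, and 0 were called by limma in any of the 4 comparisons, with 2, 3, 1 and 1 at an unadjusted p under 0.05. The most variable of them was *FTH1*, the ferritin heavy chain (SD 0.65), with a log2 ratio of -1.67 in SK-MES-1, compared with -0.47 in EBC-1. All 36 calls in these lists kept their direction under the other scalings and filters. The means were unchanged by the filters and by the spread of the compared arrays only, so the direction could not turn there. Of the 36 calls, 36 remained with normexp and loess, 33 with median centring, 25 without a filter and 15 with the spread of the compared arrays only. Under that last setting 0 of the 21 calls with *miR-150-3p* or siDONSON against the control remained, and without a filter 1 of the 6 with *miR-150-3p* did (*REEP5*).

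The genes whose ratios moved most like those of each reference gene were found by Pearson's r over the 8 arrays among 11210 genes above background in both channels. For *GUSB* they were *SUCLG2* and *GNL3* (r 0.96 and 0.95), for *HPRT1* *ITIH4* and *NUP210* (0.99 and 0.98) and for *PPIA* *ANP32E* and *GTF2F2* (0.97 and 0.95). For *TBP* they were *ZNF776* and *TSHZ1* (0.99 and 0.98), for *ACTB* *ATP6V0E2-AS1* (0.98), for *YWHAZ* *TIA1* and *RARG* (0.99 and 0.98), and for *TFRC* *TNFRSF21* (0.98). These are the highest of many values from only 8 arrays that share a slide and fall into 3 groups, and they are given as a description.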

How the data were processed

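The authors deposited Agilent Feature Extraction output (version 12.1.1.1, protocol GE2_1200_Dec17) for 8 two-colour arrays. The deposited intensity columns hold background-subtracted, dye-normalized processed signals, and the deposited log10 ratios and their errors come from the same software. The deposited series table held the same log10 ratios (largest difference 0), and 0 of its columns were left unmatched. The paper's methods do not describe the array processing. Red is Cy5 (treated or edited) and green is Cy3 (control).

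Control spots and spots marked as non-uniform or population outliers (81 to 133 an array) were left out. Log2 ratios of a probe were kept where either channel was well above background, and probes of a gene were averaged. Probes were named through RefSeq accessions (31104 of 58201 probes). Errors of several probes were combined as independent. The number of arrays limits the precision. Group means against 0 and the difference between siDONSON and *LOXL2* editing were tested with limma 3.58.1 (R 4.3.3, lmFit and eBayes), in 1 model of 3 group means with 5 residual degrees of freedom, with Benjamini-Hochberg adjustment over all genes tested and a threshold of 0.05. The fit was tested on simulated data. Alternatives were normexp (offset 50, on median spot signals, since the files hold no mean signals) with loess, other filters, centring, the brightest probe, marked spots kept, the spread of the compared arrays only and leaving out each array.

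The 7 genes and all lists were chosen with earlier results of these data known. Besides the 7 genes, the text names the targets, the 3 steadiest and 3 most variable of the other reference genes with *GAPDH*, *B2M* and *RPLP0*, related genes that passed a test or else the most variable, the 2 genes most like each reference gene, and the 5 steadiest genes. The other reference genes named for a call were chosen after their values were seen. Some genes that these rules name are not reported here.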

Additional observations from a re-analysis of the deposited data

Results flagged for a closer look

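In 3 comparisons every array of a group lay on the opposite side of 0 from every array of another group. *ACTB* was below 0 on both *miR-150-3p* arrays and above 0 on all 3 A549-GE arrays, and the group means differed by -0.75 (log2, *miR-150-3p* minus *LOXL2* editing). *YWHAZ* was slightly above 0 on both *miR-150-3p* arrays (0.07 and 0.04) and below 0 on all siDONSON and A549-GE arrays, but as an average of 2 probes that were on opposite sides of 0 in SK-MES-1 and with siDONSON-1 and siDONSON-3. Its group means differed by 0.29 (*miR-150-3p* minus siDONSON), where siDONSON-2 alone was far from 0, and by 0.61 (*miR-150-3p* minus *LOXL2* editing). These differences were not tested, and treatment and cell line cannot be told apart in them.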

How the results depend on the processing

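Of the 7 genes, 3 calls were made in the 4 comparisons, and 2 to 4 under the alternatives that kept all arrays. Leaving out an array gave 0 to 6. Without any single A549-GE array none of the 7 genes was called in any comparison (*YWHAZ* limma adjusted p 0.135 to 0.154, *TBP* 0.146 to 0.184, with means of -0.56 to -0.54 and -0.40 to -0.34). Without siDONSON-2 there were 6 calls, with *TFRC* higher and *TFRC* and *YWHAZ* differing between siDONSON and editing. No direction of a called gene turned. *TBP* with *miR-150-3p* also lost its call without a filter (limma adjusted p = 0.056) and with the spread of its own 2 arrays (0.374). Over all genes, 766 were called with *miR-150-3p* (1535 with normexp and loess, 198 without a filter, 0 with the spread of the 2 arrays, 1 to 2972 leaving out an array, where the lone array is assumed to vary like the others). With siDONSON 1043 were called (2897 without a filter, 26 with the spread of the group, 97 to 1115 leaving out an array). In edited A549 cells 2229 were called (5375 without a filter, 5873 with the spread of the group, 470 to 588 leaving out an array). Between siDONSON and editing 995 were called (1602 with normexp and loess, 155 to 1208 leaving out an array). The labels' numbers 1 to 3 occur in both of these groups, and with the number as a replicate block 389 genes were called. Same-numbered arrays did not deviate together (r of -0.02, -0.01 and -0.01 over 13655 genes), and no array correlated best with its own number, so the numbers do not pair the arrays. Causes were not tested.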

Other observations

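Among genes above background in both channels on all 8 arrays, the lowest SDs of the log2 ratio were those of the ribosomal protein gene *RPS9* (0.018, from -0.16 to -0.10), *RPL29*, a further ribosomal protein gene (0.041), the clathrin light chain gene *CLTA* (0.043), the RNase P gene *POP4* (0.043) and the pseudogene *RPL29P2* (0.045). Near-identical copies such as *RPL29* and *RPL29P2* may not be separated by their probes, so both values are uncertain. The steadiest of 11211 genes by SD need not lie at 0: *CLTA* was between 0.14 and 0.25 on every array.

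Averaging references changed their spread. The mean log2 ratio of the 7 genes ran from -0.15 in EBC-1 to 0.19 with siDONSON-1 (SD 0.11 over the 8 arrays), compared with an SD of 0.14 for the mean of *GUSB* and *PPIA* and of 0.22 for *GUSB* alone. *PPIA* alone, at 0.085 as the average of its 5 probes, had a lower SD than any of these averages. With its brightest probe alone the SD of *PPIA* was 0.13, above the 0.11 of the mean of the 7 genes. The median of all genes lay between 0.005 and 0.05 on every array.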
